A study of Mus musculus with 6 samples.

Results

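Blastocysts in which DOX-induced let-7 had brought on dormancy in culture (DOX-7g) were set against blastocysts that were dormant in vivo (Dor-7g), both on day 7. The comparison used the 4 microarrays titled for these groups, 2 of each, out of 6 in the series, and every gene was also read against each Dor-7g array by itself. It was described across 14020 genes, those with a probeset that named exactly 1 gene and reached the median signal of its array on at least 2 of the 6 arrays, and the brightest probeset by its mean over the 6 arrays stood for its gene. The remaining 2 arrays held blastocysts activated on day 4 (D4-act-7g); they helped to estimate the spread and are given as a further level where named. All 3 groups came from mice carrying a let7g transgene, the in vivo dormant embryos included. Each Mouse Gene 2.0 ST array was made from the RNA of 10 blastocysts, released by heat in water and labelled with biotin. The labels used here name no promoter or cell type for the transgene and no dose of DOX, and they leave unsaid whether replicate arrays represent different mice or different pools of embryos. All p-values therefore reflect array-to-array spread alone, which may be technical. DOX-7g differed from Dor-7g in culture and in the labelled use of DOX as well as in how dormancy arose, and these cannot be told apart.

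Embryonic diapause is a pause before implantation in which the blastocyst stays alive while cell division and growth slow down. The series' title names let-7 from vesicles of the uterine lining as an inducer of that state, and this comparison asks how far embryos held by let-7 in culture carry the transcripts of embryos held in the uterus. let-7 is a microRNA family best known for damping growth and proliferation genes such as Lin28a, Hmga2 and Myc, which it recognises through its seed, the bases near its front end. The induced member is shown because it defines the treatment, with the seed (bases 2 to 8) in capitals; its mature sequence, from RefSeq, lies at chr9:106178846-106178867 on the plus strand of GRCm38.p6.
let-7g-5p: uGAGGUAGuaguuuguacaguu
All 9 let-7 family 5p sequences of the table carried this seed. The array did not show the induction. The Mirlet7g probeset had levels of 3.46 and 3.20 log2 units in DOX-7g, of 3.50 and 3.59 on Dor-7g replicates 1 and 2, and of 3.31 and 3.56 on the D4-act-7g arrays, below the array median on every array. The groups overlapped at that dim level, so the probeset checks nothing about the transgene. Of 14 probesets for 12 let-7 family genes, 10 lay below the median on all arrays and 2 were bright enough to be tested. Mirlet7a-2 stood at 3.78 and 3.71 in DOX-7g against 5.01 and 4.81 in Dor-7g, a difference of -1.17 ± 0.20 (limma's moderated SE, n = 2 arrays each; adjusted p = 0.080), which did not pass. Mirlet7a-1 stood at 5.53 and 5.65 against 5.67 and 4.79 (0.36 ± 0.33, adjusted p = 0.665).

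The embryos carried the transcripts of blastocysts in both groups. Krt18, a keratin of the trophectoderm (the outer layer), stood between 13.05 and 13.37 on the 4 arrays, and Krt8 between 9.80 and 11.30. The trophectoderm regulators Cdx2 (6.43 to 7.48) and Gata3 (6.71 to 7.30) and the primitive endoderm regulators Gata6 (6.43 to 7.10), Gata4 (6.44 to 6.90) and Sox17 (7.11 to 7.49) were also above the array medians, which lay between 4.62 and 4.87. Pou5f1 (5.83 to 6.13) and Nanog (5.51 to 5.82), of the inner cell mass, were only modestly above them, and Sox2, another gene of the inner cell mass, was below the median on every array at 3.73 to 3.92. Of these, all but Sox2 were bright enough to be tested, and none passed between the groups. Dor-7g replicate 1 stood apart from the other arrays: its median was 4.87 and those of the other arrays 4.62 to 4.67, Pearson's r between it and each of the others was 0.899 to 0.919 over all probesets, and the pairs of DOX-7g and D4-act-7g correlated at 0.969 and 0.978. Over the genes tested, the median gap between replicates was 0.36 log2 units in Dor-7g, 0.20 in DOX-7g and 0.17 in D4-act-7g. Because of this array, results are given against each Dor-7g array and, where a call rests on it, without replicate 1.

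In all, 163 of 14020 genes differed between DOX-7g and Dor-7g at an adjusted p under 0.05 (limma with Benjamini-Hochberg adjustment), 1.16% of those tested. Of these, 146 were higher in DOX-7g (1.04%) and 17 were lower (0.121%). These shares are the background for every count of called list members below. The DOX-7g arrays did not overlap the Dor-7g arrays in any of the 163, and the DOX-7g mean lay more than 1 log2 unit from each Dor-7g array in all of them. With 2 arrays a group, a call needs a difference large beside the gap between replicates, so this separation largely follows from the call. Taking the Dor-7g arrays singly gave a less even picture. The DOX-7g mean was more than 1 unit above Dor-7g replicate 1 in 1199 genes and above replicate 2 in 549, and more than 1 unit below them in 349 and 429. It was more than 1 unit above both arrays in 388 genes (2.77%) and below both in 92 (0.656%), so 242 and 75 genes that far from both arrays were not called. The median difference over all genes was -0.11, which was -0.17 against replicate 1 and -0.02 against replicate 2. Leaving out replicate 1 gave 218 calls (1.55%), 143 higher (1.02%) and 75 lower (0.535%), with 129 of the 163 among them. The lone remaining Dor-7g array is then assumed to vary like the other groups. Leaving out replicate 2 gave 880 (6.28%), 710 higher (5.06%) and 170 lower (1.21%), with 160 of the 163 among them. Of the calls higher in DOX-7g, 114 held without replicate 1 and 143 without replicate 2, and 50 held whichever of the 6 arrays was left out. Of those lower, 15 held without replicate 1 and 17 without replicate 2, and Efcab10 and Gm20005 held whichever array was left out. Leaving out DOX-7g replicate 1 or 2 gave 89 and 67 calls, and leaving out either D4-act-7g array gave 86.

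**Figure D1:**
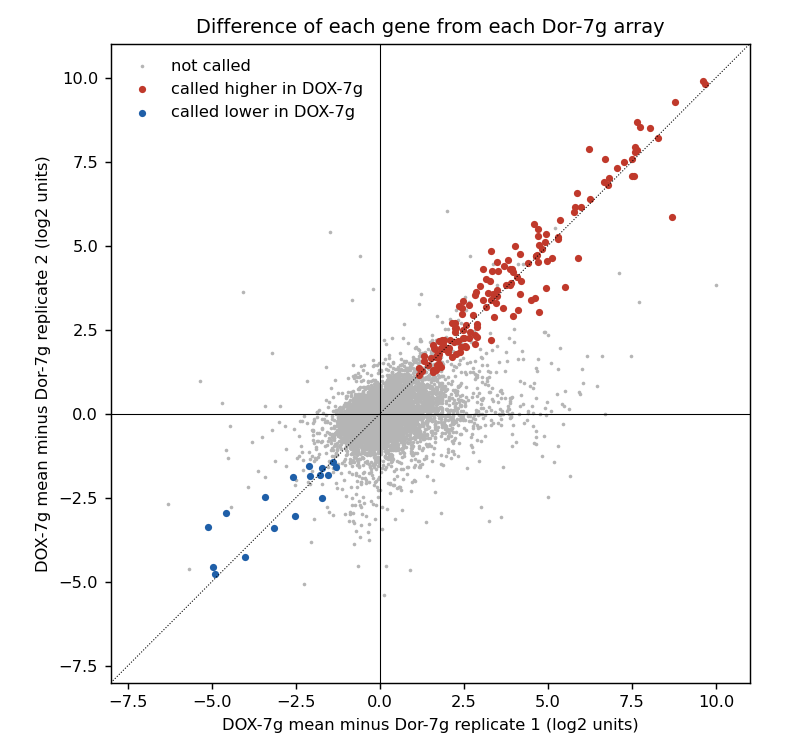
Each point is 1 of the 14020 genes, placed by the DOX-7g mean minus Dor-7g replicate 1 (x axis) and minus Dor-7g replicate 2 (y axis), in log2 units; red marks the 146 genes called higher, blue the 17 called lower, grey the rest, and the dotted line marks equal differences. The called genes lie near the dotted line and away from 0, which the test itself largely requires of a call. Many grey points stretch to the right at a y value near 0, where DOX-7g stood above replicate 1 alone.

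Many of the genes with the largest rises in DOX-7g belong to the 2-cell-like group. This is a set of transcripts from multicopy loci, among them Zscan4, Tcstv, Usp17l, Pramel and Tdpoz genes, that the mouse embryo switches on at its earliest divisions and that a small share of embryonic stem cells shows at a given time. Of 30 genes listed for it, 27 were named on the array and 23 were tested; 16 were higher in DOX-7g and none was lower, where 1.04% of all genes were called higher. The list was chosen with earlier results of these data known and includes genes picked for them. A gene could also be tested by reaching the median on the 2 DOX-7g arrays alone, so members high only there were tested for that reason. Of the 146 genes called higher, 52 were below the median on both Dor-7g arrays. The list's count and median are therefore a description and not independent evidence. The list's median difference was 5.65, against -0.11 over all genes. It was 5.85 against Dor-7g replicate 1 and 5.28 against replicate 2. Without replicate 1, 13 members were called, and without replicate 2, 17.

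AF067061, a gene of this group that lies beside Tcstv3, stood at 13.11 and 13.13 in DOX-7g, 3.52 and 3.22 on Dor-7g replicates 1 and 2, and 3.12 and 3.17 on the D4-act-7g arrays. It was bright in DOX-7g and dim on the other 4 arrays, a difference of 9.75 ± 0.18 (SE, n = 2 each; limma, adjusted p = 6.9e-05), the largest of all genes tested. Usp17lc, a deubiquitinase gene, stood at 12.52 and 12.56 against 2.87 and 2.73 (9.74 ± 0.23, adjusted p = 7.8e-05). Zscan4a, one of the zinc finger genes that mark the state, stood at 12.46 on both DOX-7g arrays, at 6.6 and 5.90 on the Dor-7g arrays and at 6.10 and 6.40 on the D4-act-7g arrays (6.21 ± 0.28, adjusted p = 4.6e-04). For Zscan4a the DOX-7g arrays were thus high, and both other groups were low and overlapped each other. Usp17lc stood at 4.23 and 4.79 on the D4-act-7g arrays, above both Dor-7g arrays and far below DOX-7g.

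The other Zscan4 genes were less bright and less even. Zscan4d stood at 9.69 and 11.04 against 5.66 and 5.09 (4.99 ± 0.46, adjusted p = 0.0097), and Zscan4e at 7.98 and 7.48 against 2.89 and 2.84 (4.86 ± 0.23, adjusted p = 5.7e-04). Zscan4c stood at 7.92 and 9.53 against 4.86 and 4.90 (3.85 ± 0.50, adjusted p = 0.032), and Zscan4b at 6.97 and 8.52 against 4.40 and 3.51 (3.79 ± 0.55, adjusted p = 0.047). All 4 were above both Dor-7g arrays, but Zscan4b and Zscan4c lost the call without Dor-7g replicate 1 (adjusted p = 0.065 and 0.090), as Tcstv1 did (0.061). Which of these near-identical copies a probeset measured is uncertain. The copies are also alike in front of the gene: the 250 bases before the start of Zscan4c (chr7:11005495-11005744, plus strand) and of Zscan4d (chr7:11166149-11166398, minus strand), from RefSeq on GRCm38.p6, are shown because members of this cluster moved together, with the letters TATAAA in capitals. These promoters were chosen after the values were seen.
Zscan4c: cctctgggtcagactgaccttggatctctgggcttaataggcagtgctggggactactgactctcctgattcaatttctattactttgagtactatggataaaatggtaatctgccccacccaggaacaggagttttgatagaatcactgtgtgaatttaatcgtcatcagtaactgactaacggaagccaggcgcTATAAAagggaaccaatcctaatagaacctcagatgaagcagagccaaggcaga
Zscan4d: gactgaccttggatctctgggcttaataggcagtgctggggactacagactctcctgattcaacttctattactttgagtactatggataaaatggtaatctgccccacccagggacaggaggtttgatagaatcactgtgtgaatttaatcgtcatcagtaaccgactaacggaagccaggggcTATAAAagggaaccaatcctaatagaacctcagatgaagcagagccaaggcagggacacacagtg
Set against each other at an offset of 11 bases, they were identical at 232 of 239 bases. TATAAA, searched on both strands, was found 54 and 65 bases before the start, and 12.4% of 32851 promoters of that length hold it. A match is a description of the letters and not a binding site.

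Genes of the Pramel and Tdpoz families, which lie in clusters of near-identical copies, were also bright in DOX-7g and dim in Dor-7g. Pramel16 stood at 10.34 and 10.26 in DOX-7g against 3.48 and 3.30 in Dor-7g (6.91 ± 0.19, adjusted p = 9.3e-05), Pramel19 at 10.43 and 11.10 against 3.25 and 3.69 (7.29 ± 0.29, adjusted p = 3.2e-04), and Pramel17 at 9.80 and 11.38 against 3.09 and 3.0 (7.55 ± 0.59, adjusted p = 0.0052). All 3 were below the median on the Dor-7g arrays. Tdpoz2 differed from these in its day 4 level: it stood at 10.75 and 10.21 in DOX-7g, at 3.23 and 2.99 in Dor-7g and at 8.19 and 8.88 in D4-act-7g (7.37 ± 0.31, adjusted p = 3.8e-04), and its other probeset gave 2.93. Pramel31 was as far from Dor-7g in the mean as Pramel16, and Tdpoz9 was less far than the 4 genes above. Neither passed, and their Dor-7g arrays lay far apart. Pramel31 stood at 11.79 and 12.72 against 2.26 and 8.43 (6.91 ± 1.94, adjusted p = 0.277), and Tdpoz9 at 11.47 and 10.14 against 3.69 and 6.62 (5.65 ± 0.99, adjusted p = 0.093). In both, Dor-7g replicate 1 was dim and replicate 2 was not.

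Other genes of the group also differed, and a few members of the same families did not. Tcstv3 stood at 11.38 and 11.40 against 5.16 and 3.53 (7.05 ± 0.58, adjusted p = 0.0063), and Gm4340 at 13.13 and 13.23 against 6.51 and 6.29 (6.78 ± 0.20, adjusted p = 1.0e-04). Sp110, a nuclear body protein gene, stood at 11.84 and 11.78 against 3.13 and 5.97 (7.26 ± 0.86, adjusted p = 0.022), and its other 2 probesets gave 4.35 and 3.71. Its 2 Dor-7g arrays lay further apart than those of any other gene called higher, though both stood well below DOX-7g. Usp17la stood at 5.81 and 6.49 in DOX-7g against 7.29 and 6.09 (-0.54 ± 0.49, adjusted p = 0.668), and Usp17ld at 8.78 and 9.52 against 9.79 and 8.82 (-0.15 ± 0.39, adjusted p = 0.880), with overlapping arrays. Both belong to the family of Usp17lc.

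**Figure D2:**
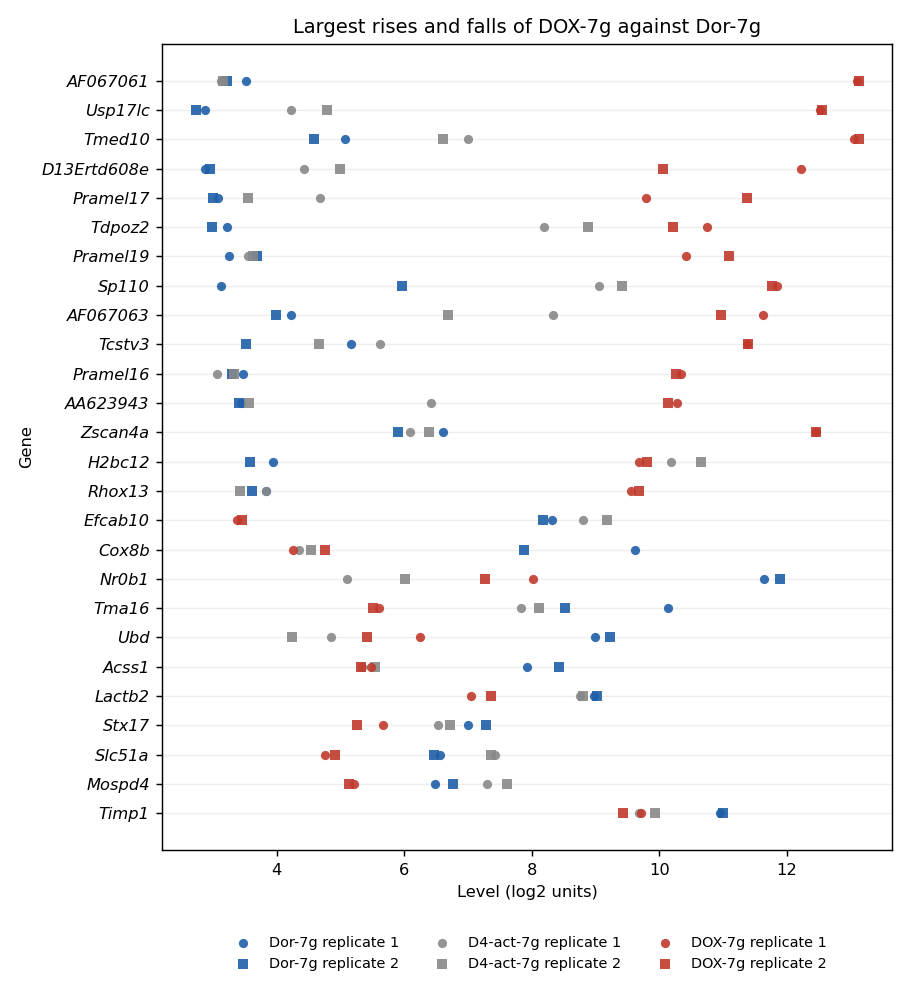
Levels in log2 units (x axis) of the 15 largest rises and the 11 falls in DOX-7g against Dor-7g among named genes (y axis), with circles for replicate 1 and squares for replicate 2 of DOX-7g (red), Dor-7g (blue) and D4-act-7g (grey). The red points of the upper 15 genes lie between 9.56 and 13.14 and the blue ones between 2.73 and 6.6; for H2bc12 the grey points lie beyond the red ones, and in the lower 11 genes red and blue change sides.

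Some of the called genes sat beside each other in the genome. Of 162 called genes with a place in the RefSeq annotation of GRCm38.p6, 38 lay in 13 runs in which a called gene was followed by another within 3 tested genes. No background share of such runs was worked out, so the count is a description. In the run of Nr0b1 with Gm5941, 1 gene was higher and the other was lower. The longest run held 8 genes around Oog1, an oocyte-type gene, and all were higher: Oog1 itself stood at 7.78 and 6.73 against 3.22 and 2.25 (4.52 ± 0.57, adjusted p = 0.029), and Gm8300 at 12.42 and 12.50 against 4.88 and 4.68 (7.68 ± 0.20, adjusted p = 8.4e-05). The next held the 5 Zscan4 genes, and a run of 4 held AF067063, D13Ertd608e, Tcstv1 and B020031M17Rik. D13Ertd608e stood at 12.22 and 10.06 against 2.88 and 2.95 (8.23 ± 0.68, adjusted p = 0.0063), AF067063 at 11.63 and 10.97 against 4.23 and 4.00 (7.19 ± 0.55, adjusted p = 0.0047), and B020031M17Rik at 12.97 and 12.87 against 4.14 and 3.64 (9.03 ± 0.22, adjusted p = 7.8e-05). Where a run holds near-identical copies, as among the Zscan4 genes, they may not be independent counts; other runs, such as Ddit4l with Dnajb14, hold unlike genes. Gm8300 and B020031M17Rik were named after their values were seen. Rhox13, a homeobox gene of the X-linked Rhox cluster, was the called member of 5 tested in that cluster, at 9.56 and 9.69 against 3.84 and 3.62 (5.89 ± 0.21, adjusted p = 2.5e-04).

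A few of the largest differences rested on probesets whose gene is uncertain. Tmed10, a cargo receptor of the secretory pathway, stood at 13.05 and 13.14 in DOX-7g against 5.07 and 4.58 in Dor-7g (8.27 ± 0.24, adjusted p = 1.0e-04). Its other 2 probesets gave differences of 0.27 and 1.44, so the probesets disagree about the gene. AA623943, a gene known only by its sequence name, stood at 10.29 and 10.13 against 3.44 and 3.41 (6.78 ± 0.85, adjusted p = 0.029), and its 2 D4-act-7g arrays stood at 6.43 and 3.57. That wide day 4 gap entered its error, and without Dor-7g replicate 1 it did not pass (adjusted p = 0.087).

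A heat shock chaperone and a pair of p53 target genes were higher in DOX-7g, while most members of their lists did not pass. Heat shock chaperones refold damaged proteins, and p53 is a transcription factor that answers DNA damage and other stress by raising genes that halt division. Of 15 heat shock chaperone genes tested, Hspa1b was higher and none was lower, where 1.04% of all genes were called higher. The list's median was 0.08, above the -0.11 of all genes. Hspa1b, an inducible chaperone of the Hsp70 family, stood at 11.21 and 11.99 in DOX-7g, 5.71 and 6.98 in Dor-7g and 8.48 and 9.18 in D4-act-7g. The 3 groups did not overlap, with Dor-7g lowest and DOX-7g highest, and the difference was 5.26 ± 0.51 (SE, n = 2 each; limma, adjusted p = 0.011). The call of Hspa1b was lost in at least 1 of the fits that left out an array. Hspa1a, its near-identical neighbour, stood at 9.20 and 12.14 against 5.45 and 5.15; its DOX-7g arrays were both high but far apart, and the difference of 5.37 ± 0.92 did not pass (adjusted p = 0.086). Other chaperones did not pass: Hspa8, a constitutive Hsp70, stood at 11.03 and 11.04 against 11.50 and 9.58 (0.49 ± 0.59), and Hsp90aa1, an inducible Hsp90, at 7.32 and 7.33 against 6.84 and 6.92 (0.44 ± 0.17, adjusted p = 0.406). The groups overlapped in Hspa8, while both DOX-7g arrays were above both Dor-7g arrays in Hsp90aa1.

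The 250 bases before the start of Hspa1b (RefSeq, GRCm38.p6, chr17:34959239-34959488, minus strand) are shown because it was the called member of its list, with the letters GAANNTTC of the pair that begins a heat shock element in capitals.
Hspa1b: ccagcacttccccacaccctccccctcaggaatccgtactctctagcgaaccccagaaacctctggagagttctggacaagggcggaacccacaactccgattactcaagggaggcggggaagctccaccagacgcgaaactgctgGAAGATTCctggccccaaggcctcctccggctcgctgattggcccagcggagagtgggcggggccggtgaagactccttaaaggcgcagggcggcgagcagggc
The pair began 104 bases before the start, and 6.69% of 32851 promoters hold it on either strand. The longer forms, this pair followed after any 2 bases by GAA or preceded by TTC and any 2 bases, were found in 0.466% of promoters and were not in this window. The same stretch of Hspa1a was identical at 247 of 250 bases and held the same pair, so the probesets of these genes may share signal.

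Of 19 p53 target genes tested, Cdkn1a and Phlda3 were higher and none was lower, where 1.04% of all genes were called higher. The list's median was -0.04, with 0.30 against Dor-7g replicate 2 and a value within 0.01 of 0 against replicate 1. Cdkn1a, an inhibitor of the kinases that drive the cell cycle, stood at 9.86 and 9.78 in DOX-7g, 7.43 and 7.99 in Dor-7g and 8.77 and 8.62 in D4-act-7g. The groups did not overlap, and DOX-7g was higher than Dor-7g by 2.11 ± 0.24 (adjusted p = 0.018). Phlda3, a brake on Akt signalling, stood at 10.12 and 10.19 against 8.26 and 8.07, with D4-act-7g at 8.06 and 7.89, a difference of 1.99 ± 0.18 (adjusted p = 0.0089). The calls of Cdkn1a and Phlda3 were each lost in at least 1 of the fits that left out an array. Btg2, which slows division, stood at 6.16 and 5.88 against 3.90 and 4.54 (1.80 ± 0.30, adjusted p = 0.075). Ccng1 stood at 11.76 and 11.73 against 6.46 and 10.41, above both Dor-7g arrays, which lay far apart, and the difference of 3.31 ± 1.18 did not pass (adjusted p = 0.388). The remaining inhibitors of cyclin-dependent kinases did not pass: of 7 tested, Cdkn1a was the called one, and Cdkn1c stood at 7.36 and 7.03 against 6.73 and 6.88 (0.39 ± 0.19, adjusted p = 0.504).

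The 250 bases before the start of Cdkn1a (RefSeq, GRCm38.p6, chr17:29090729-29090978, plus strand) are shown for a pair of CATG letters at a spacing that p53 sites have (CATG, any 6 bases, CATG), in capitals.
Cdkn1a: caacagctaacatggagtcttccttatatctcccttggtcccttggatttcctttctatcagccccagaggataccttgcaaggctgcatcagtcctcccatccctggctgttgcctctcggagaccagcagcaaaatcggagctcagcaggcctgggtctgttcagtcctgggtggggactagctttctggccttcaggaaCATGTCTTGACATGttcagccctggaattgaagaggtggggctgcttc
This search was added after the values were seen. The pair began 48 bases before this start and is held by 0.49% of promoters on either strand; it was not in the window of the other start listed for Cdkn1a, nor in that of Phlda3. TTGCATCA, the letters of an amino acid response element (0.791% of promoters), was in none of these windows, and of 24 genes of the integrated stress response, which answers amino acid shortage, none was called (median -0.03). At an unadjusted p under 0.05, 2 of those 24 were higher and 1 was lower, where 849 and 775 of all 14020 genes were.

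Arg2, an arginase that removes arginine, stood at 9.63 and 8.69 in DOX-7g, 4.75 and 4.68 in Dor-7g and 5.23 and 5.22 in D4-act-7g. It was high in DOX-7g only among these arrays, by 4.44 ± 0.32 over Dor-7g (adjusted p = 0.0037), and held whichever array was left out. Socs1, which restrains cytokine signalling, stood at 7.76 and 7.62 against 6.37 and 6.12 (1.45 ± 0.18, adjusted p = 0.030), but its highest levels were on the day 4 arrays, at 8.42 and 8.52. It was the called member of 18 genes tested of cytokine signalling.

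S100a9, Ly6g and Prtn3, genes best known from neutrophils and their precursors, were also higher in DOX-7g. S100a9, a calcium-binding protein gene abundant in neutrophils, stood at 9.55 on both DOX-7g arrays, 7.10 and 6.41 in Dor-7g and 4.49 and 4.6 in D4-act-7g (2.79 ± 0.26, adjusted p = 0.0099). S100a8, which encodes its partner, stood at 10.91 and 10.12 against 2.81 and 7.18; the difference of 5.52 ± 1.31 did not pass (adjusted p = 0.199) but did without Dor-7g replicate 1 (adjusted p = 0.028). Ly6g, a surface protein gene that marks neutrophils, stood at 7.41 and 7.39 against 3.75 and 4.25 (3.40 ± 0.25, adjusted p = 0.0042). Of 16 blood and immune markers tested out of 27 listed, S100a9 and Ly6g were higher and none was lower. Over all genes, 1.04% were called higher and 0.121% lower. The list's median difference was -0.0052. The median level over the 16 was 5.37 and 5.29 in DOX-7g and 5.24 and 4.88 in Dor-7g. Prtn3, a granule protease gene that was not on that list and was added after its values were seen, stood at 8.05 and 7.62 against 6.42 and 6.38, with day 4 at 6.90 and 6.73 (1.44 ± 0.21, adjusted p = 0.049), and did not pass without Dor-7g replicate 1 (adjusted p = 0.088). Other granule genes on the list lay near the array median and overlapped between the groups, Mpo at 4.62 to 4.94, Elane at 4.85 to 5.26 and Ngp at 4.72 to 5.17. Ptprc, the pan-leukocyte antigen gene, stood at 3.61 to 3.82 on the 4 arrays, below the median on every array. The part of blood cells in these differences was not tested. In RNA from whole blastocysts, fewer cells of a type and less RNA per cell cannot be told apart.

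**Figure D3:**
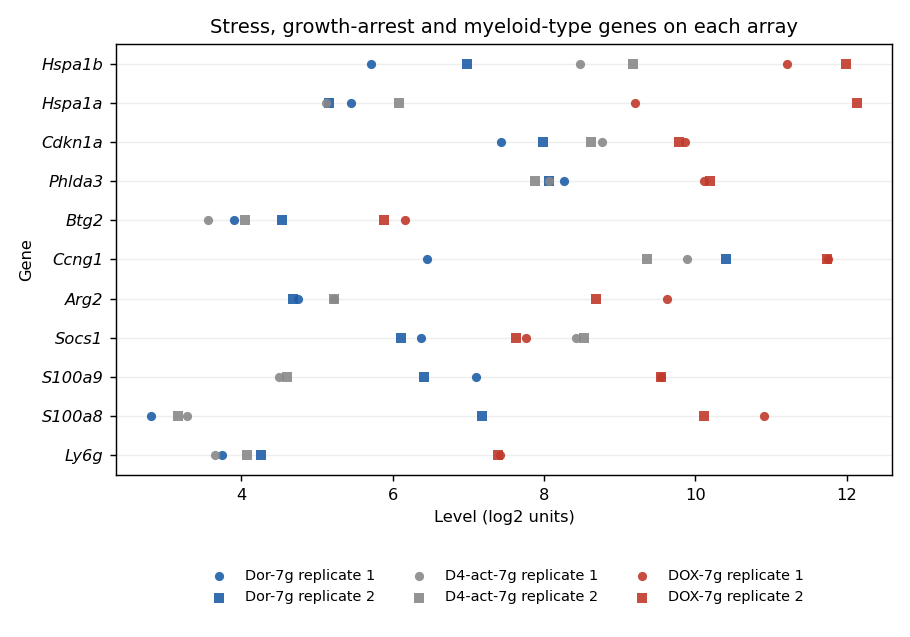
Levels in log2 units (x axis) of 11 stress, growth-arrest and myeloid-type genes (y axis), with circles for replicate 1 and squares for replicate 2 of DOX-7g (red), Dor-7g (blue) and D4-act-7g (grey). The red points lie to the right of the blue ones in every gene drawn; Hspa1a, Btg2, Ccng1 and S100a8 did not pass the test, and for Ccng1 and S100a8 the blue circle, Dor-7g replicate 1, lies far to the left of the blue square.

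Where the day 4 arrays stood divided the genes called higher. The day 4 mean was nearer to DOX-7g than to Dor-7g in 60 of the 146, and beyond the DOX-7g mean in 26 of them; it was nearer to Dor-7g in 86, and below the Dor-7g mean in 30. Both comparisons with day 4 share the D4-act-7g arrays, so their calls are given side by side and not as an overlap. Among the 146, DOX-7g against D4-act-7g passed in 72 and Dor-7g against D4-act-7g in 46. Over all genes tested these comparisons passed in 134 (0.956%) and 138 (0.984%). The 146 were picked for a gap between DOX-7g and Dor-7g, so day 4 had to lie apart from at least 1 of these groups. The higher share among the 146 therefore follows in part from that choice. AF067061, Pramel16, Rhox13 and Zscan4a were of the kind in which day 4 matched Dor-7g.

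H2bc12, a gene of histone H2B, was of the other kind. It stood at 9.69 and 9.82 in DOX-7g, 3.94 and 3.59 in Dor-7g and 10.18 and 10.66 in D4-act-7g. Dor-7g alone was dim, and DOX-7g lay above it by 5.99 ± 0.24 (adjusted p = 3.4e-04), while it differed from day 4 by -0.67 (adjusted p = 0.389). Replication-coupled histone genes are transcribed mainly while DNA is copied. Of 60 histone genes listed, 25 were named on the array and 18 were tested. H2bc12 and H2bc9 were higher in DOX-7g and none was lower, where 1.04% of all genes were called higher. Both were below the array median on both Dor-7g arrays. As in the 2-cell-like list, a member could be tested by reaching the median on the 2 DOX-7g arrays alone. The list's median was 1.49, or 1.05 and 1.15 against Dor-7g replicates 1 and 2, where all genes had -0.11. H2bc9 stood at 6.67 and 8.92 against 2.68 and 3.17 (4.87 ± 0.72, adjusted p = 0.0497), at the edge of the threshold and not past it without Dor-7g replicate 1 (adjusted p = 0.125). In 12 of the 18 both DOX-7g arrays lay above both Dor-7g arrays, against 15% of all genes, and in 1 both lay below, against 26.7% of all genes. H4c17, a histone gene outside this list, was named after its values were seen. It stood at 6.99 and 6.58 in DOX-7g against 3.71 and 2.47 in Dor-7g (3.70 ± 0.42, limma, adjusted p = 0.019). Its day 4 arrays, at 2.95 and 3.23, were level with Dor-7g, unlike those of H2bc12.

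Other genes in which Dor-7g stood below both other groups had varied roles. Tsx, a gene near the X-inactivation centre, stood at 10.44 and 10.32 in DOX-7g, 5.73 and 5.70 in Dor-7g and 9.49 and 9.51 in D4-act-7g (4.67 ± 0.16, adjusted p = 2.4e-04). Syce3, of the complex that joins chromosomes in meiosis, stood at 10.42 and 9.72 against 6.19 and 5.75, with day 4 at 10.52 and 10.44 (4.10 ± 0.29, adjusted p = 0.0037). Pemt, which makes phosphatidylcholine, stood at 12.84 and 12.55 against 10.12 and 10.72, with day 4 at 12.73 on both arrays (2.28 ± 0.25, adjusted p = 0.017). In all 3, Dor-7g stood below both other groups with no overlap. Ly6f, a surface protein gene beside Ly6g, stood at 8.36 and 9.49 against 4.86 on both Dor-7g arrays, with day 4 highest at 10.60 and 10.63 (4.07 ± 0.37, adjusted p = 0.0091). Ly6f and Ly6g were the called members of 13 genes tested in their family, and they differed in the day 4 level, high for Ly6f and dim for Ly6g. Tsx, Syce3 and Pemt were chosen after their values were seen. Pmm1, which makes mannose phosphate for glycosylation, stood at 10.81 and 10.79 against 6.07 and 7.77, with day 4 at 11.39 and 11.22 (3.88 ± 0.52, adjusted p = 0.037). Mt4, a metallothionein gene, stood at 8.78 and 7.49 against 3.96 and 4.56, with day 4 at 10.89 and 9.82 (3.88 ± 0.55, adjusted p = 0.042), and lost the call without Dor-7g replicate 1 (adjusted p = 0.113). It was the called member of 5 metallothionein genes tested.

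Lower in DOX-7g were 17 genes, and none of them was below the array median on both Dor-7g arrays. Nr0b1, a nuclear receptor of the naive pluripotency network, stood at 8.02 and 7.26 in DOX-7g, 11.64 and 11.89 in Dor-7g and 5.10 and 6.02 in D4-act-7g. The 3 groups did not overlap, with Dor-7g highest and day 4 lowest, and DOX-7g lay below Dor-7g by a difference of -4.13 ± 0.39 (adjusted p = 0.010). The Dor-7g arrays agreed closely on it. Nr0b1 was the called member of 23 naive pluripotency genes tested, whose median was -0.15 (-0.19 and -0.12 against Dor-7g replicates 1 and 2). Klf5 stood at 13.01 and 13.11 against 13.19 and 13.18 (-0.12 ± 0.16, adjusted p = 0.762), Zfp42 at 8.81 and 8.44 against 10.59 and 9.49 (-1.41 ± 0.43, adjusted p = 0.316) and Dppa3 at 12.05 and 11.63 against 10.63 and 10.62 (1.21 ± 0.20, adjusted p = 0.077).

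Efcab10, named for its EF-hand calcium-binding domain, had the largest fall among the genes called, at 3.37 and 3.45 in DOX-7g against 8.32 and 8.18 in Dor-7g (-4.84 ± 0.20, adjusted p = 3.8e-04). Its day 4 arrays stood with Dor-7g, at 8.80 and 9.18, so DOX-7g alone was dim. Slc51a, a subunit of a steroid and bile acid transporter, stood at 4.76 and 4.92 against 6.56 and 6.46, with day 4 at 7.42 and 7.36 (-1.67 ± 0.17, adjusted p = 0.014). Mospd4 stood at 5.22 and 5.14 against 6.49 and 6.76, with day 4 at 7.30 and 7.62 (-1.45 ± 0.20, adjusted p = 0.042). Lactb2, a nuclease of mitochondria, stood at 7.05 and 7.36 against 8.98 and 9.03, with day 4 at 8.75 and 8.80 (-1.80 ± 0.19, adjusted p = 0.014). In these 4 genes day 4 lay nearer to Dor-7g, as in 9 of the 17. Stx17, which fuses autophagosomes with lysosomes, also belonged there, at 5.67 and 5.27 against 6.99 and 7.29, with day 4 at 6.53 and 6.72 (-1.67 ± 0.22, adjusted p = 0.036).

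In the other 8 day 4 lay nearer to DOX-7g. Ubd, a ubiquitin-like protein gene raised by inflammatory cytokines, stood at 6.25 and 5.42 in DOX-7g, 9.0 and 9.23 in Dor-7g and 4.85 and 4.25 in D4-act-7g (-3.28 ± 0.35, adjusted p = 0.016), and was the called member of 16 interferon response genes tested. Cox8b, a respiratory chain subunit, stood at 4.26 and 4.76 against 9.62 and 7.88, with day 4 at 4.35 and 4.54 (-4.23 ± 0.56, adjusted p = 0.034). Its Dor-7g arrays were apart by more than 1 unit, yet both were far above all other arrays. Acss1, which activates acetate in mitochondria, stood at 5.48 and 5.33 against 7.92 and 8.44 (-2.77 ± 0.23, adjusted p = 0.0069), while its other probeset gave -0.10, so its probesets disagree. Timp1, an inhibitor of matrix proteases, stood at 9.72 and 9.43 against 10.95 and 11.01, with day 4 at 9.68 and 9.93 (-1.41 ± 0.20, adjusted p = 0.041), and did not pass without Dor-7g replicate 1 (adjusted p = 0.071). Tma16, a factor for the large ribosomal subunit, lay nearer to Dor-7g on day 4: it stood at 5.60 and 5.52 in DOX-7g, 10.14 and 8.52 in Dor-7g and 7.83 and 8.12 in D4-act-7g (-3.77 ± 0.51, adjusted p = 0.037).

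Few genes of growth and division passed the test. Of 45 G2/M and mitosis genes none was called by limma. At an unadjusted p under 0.05, 12 were higher and none was lower. Over all 14020 genes, 849 were higher and 775 lower at that threshold, the background for every such count below. The list's median was 0.29, with 0.30 against Dor-7g replicate 1 and 0.40 against replicate 2. In 21 of the 45 both DOX-7g arrays lay above both Dor-7g arrays, against 15% of all genes, and in 3 both lay below, against 26.7%. Spc24, of the kinetochore, stood at 10.75 and 11.26 against 9.55 and 9.89 (1.28 ± 0.24, adjusted p = 0.117), and Cdc20, an activator of the anaphase complex, at 8.18 and 8.55 against 7.31 and 7.55 (0.94 ± 0.21, adjusted p = 0.173). Both groups stood below day 4 for Spc24, at 11.72 and 11.58 there. Of 47 DNA replication genes none was called (3 higher and 1 lower at an unadjusted p under 0.05), with a median of 0.01; Tk1, a thymidine kinase, stood at 8.88 and 9.02 against 7.38 and 7.90 (1.30 ± 0.24, adjusted p = 0.102). The median of the DNA replication genes was 0.07 against Dor-7g replicate 1 and -0.09 against replicate 2.

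Of 61 ribosomal protein genes, Rpl34 was higher and none was lower, and the median was 0.17. Rpl34 stood at 9.67 and 9.93 against 7.65 and 8.10, with day 4 highest at 10.93 and 10.43 (1.92 ± 0.27, adjusted p = 0.040), and did not pass without Dor-7g replicate 1 (adjusted p = 0.081). Of 43 translation factor genes, Eef2, which moves the ribosome along the message, was higher, at 9.10 and 8.92 against 7.77 and 7.73 (1.26 ± 0.17, adjusted p = 0.040), and the median was 0.35 (0.41 and 0.23 against Dor-7g replicates 1 and 2). Eef2 too did not pass without replicate 1 (adjusted p = 0.062). In 27 of the ribosomal protein genes and 25 of the translation factors both DOX-7g arrays lay above both Dor-7g arrays, where 15% of all genes did; in 2 and 5 both lay below, where 26.7% of all genes did. Genes used as housekeeping references had a median of like size, 0.32 over 12 genes, with none called by limma; at an unadjusted p under 0.05, 2 of them were higher and 0 lower. Ribosome biogenesis, with 57 genes, had a median of -0.03, and Tma16 was its called member.

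The nuclear-encoded respiratory chain had 74 genes tested, of which Cox6a2 was higher and Cox8b lower, with a median of 0.07. Both are subunits of cytochrome oxidase best known from muscle and fat. Cox6a2 stood at 8.71 and 9.88 in DOX-7g against 5.94 and 5.73 in Dor-7g (3.46 ± 0.46, adjusted p = 0.035), and not past the threshold without Dor-7g replicate 1 (adjusted p = 0.088). The median was 0.07 over 18 glycolysis genes and 0.18 over 16 cholesterol synthesis genes, with no call in either (4 and 1 genes higher and 1 and 0 lower at an unadjusted p under 0.05). Acss1 was the called member of 25 fatty acid oxidation genes. Of 33 mTOR and amino acid sensing genes and 12 Myc network genes none was called, with medians of -0.06 and -0.13; at an unadjusted p under 0.05, 2 of the mTOR genes were higher and 1 was lower, and none of the Myc network passed. Ddit4l, an inhibitor of mTOR signalling that was not on the mTOR list, was called higher in DOX-7g and is described below.

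Of 21 let-7 target genes tested, none was called by limma, and at an unadjusted p under 0.05 Cdk6 and Ccnd1, both drivers of the cell cycle, were the only members past it, both higher. The list's median was -0.06, with -0.12 against Dor-7g replicate 1 and -0.06 against replicate 2. Lin28a, which blocks let-7 maturation, stood at 5.71 and 6.01 against 6.19 and 6.04 (-0.25 ± 0.19, adjusted p = 0.613), Hmga2, a chromatin protein gene, at 5.47 and 5.59 against 5.95 and 5.59 (-0.24 ± 0.20, adjusted p = 0.653), and Myc at 7.36 and 7.48 against 7.40 and 7.55 (-0.06 ± 0.20, adjusted p = 0.913). Ccnd1 stood at 6.94 and 7.16 against 6.46 and 5.90 (0.87 ± 0.28, adjusted p = 0.334). A p above the threshold with 2 arrays a group does not show that these levels were equal.

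The lineage lists and the BMP, TGF-beta and Wnt list had medians near the -0.11 of all genes, while the FGF-ERK list lay lower. None of 19 trophectoderm genes (median -0.06), 21 primitive endoderm genes (-0.19) and 30 genes of BMP, TGF-beta and Wnt signalling (-0.17) was called. At an unadjusted p under 0.05, 1, 0 and 0 of them were higher and 0, 0 and 1 lower. At that threshold 849 of all 14020 genes were higher and 775 lower. Krt19, a trophectoderm keratin, stood at 6.53 and 7.27 against 5.20 and 5.57 (1.52 ± 0.33, adjusted p = 0.165). The FGF-ERK list, of the pathway's components, targets and feedback inhibitors, had the lowest median of the lists with at least 5 genes tested, at -0.32 over 21 genes (-0.25 against both Dor-7g arrays), and none was called; 1 was higher and 3 were lower at an unadjusted p under 0.05. In 14 of the 21 both DOX-7g arrays lay below both Dor-7g arrays, where 26.7% of all genes did. Fos, an immediate early transcription factor, stood at 5.10 and 5.42 against 6.15 and 6.08 (-0.86 ± 0.19, adjusted p = 0.179), and Etv5, a target of the pathway, at 8.07 and 7.91 against 9.49 and 8.72 (-1.11 ± 0.29, adjusted p = 0.240). Map2k2, a kinase of the pathway, stood the other way, at 10.39 and 10.24 against 9.56 and 9.64 (0.72 ± 0.17, adjusted p = 0.197). Markers of the uterine epithelium (13 tested, median -0.03) and stroma (11 tested, median -0.17), the tissues around an in vivo dormant embryo, had no call by limma; at an unadjusted p under 0.05, 1 of the 24 was lower, Esr1, at 5.18 and 5.04 against 5.89 and 5.68.

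**Figure D4:**
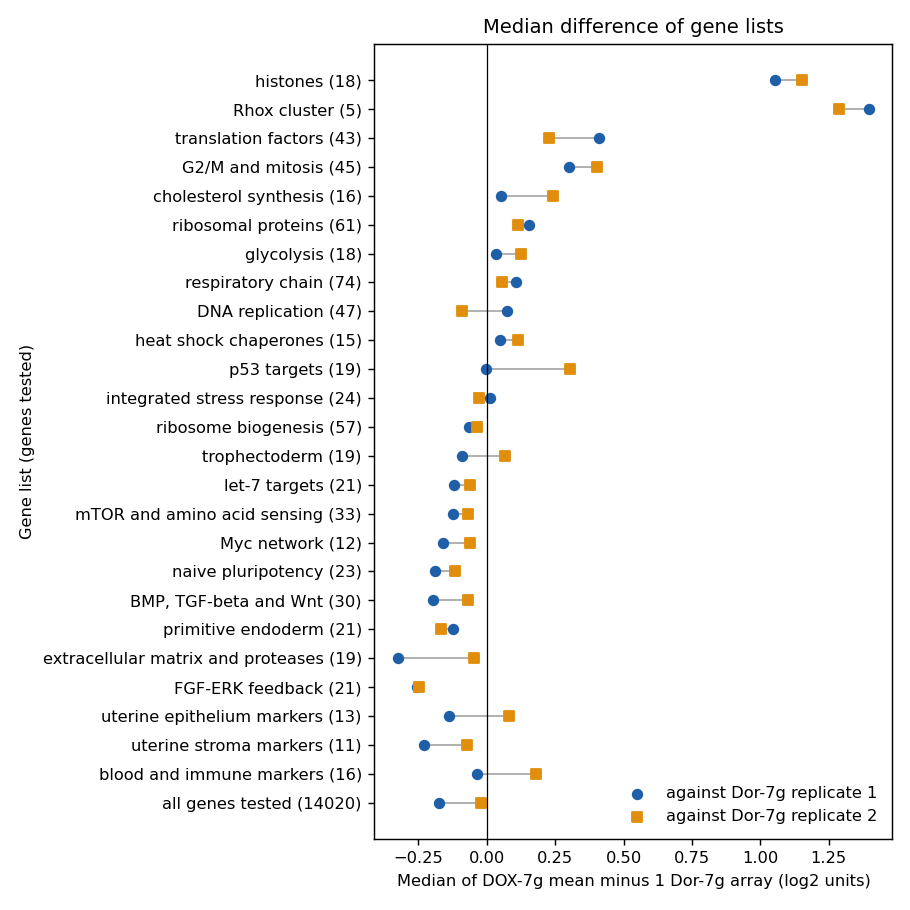
Median over each gene list drawn (y axis, with the number of genes tested; the 2-cell-like list, at 5.85 and 5.28, is left out for scale) of the DOX-7g mean minus Dor-7g replicate 1 (blue circle) and minus Dor-7g replicate 2 (orange square), in log2 units (x axis). Histones and the Rhox cluster lie right of 1 against both arrays, and the other lists drawn between -0.32 and 0.41. Some further lists are not drawn. All genes tested lie at -0.17 and -0.02.

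The Dor-7g arrays disagreed in a one-sided way. Replicate 1 lay more than 3 log2 units below replicate 2 in 155 genes and above it by that much in 17, and the arrays of DOX-7g and of D4-act-7g were that far apart in 24 and 8 genes. In 100 of the 155 the DOX-7g mean lay within 1 unit of Dor-7g replicate 2, and in 14 within 1 unit of replicate 1. Gstp1, a glutathione transferase gene, is an example: it stood at 12.48 and 12.83 in DOX-7g, at 5.19 and 10.93 on Dor-7g replicates 1 and 2 and at 13.12 and 13.07 in D4-act-7g (4.59 ± 1.70, adjusted p = 0.403). Without replicate 1 it was higher in DOX-7g at an adjusted p = 0.042. Rplp0, a ribosomal protein gene, stood at 6.46 on replicate 1 and between 11.55 and 12.19 on the other 5 arrays, and Gapdh, by contrast, at 11.29 and 11.39 on the Dor-7g arrays. Rplp0 was named after its values were seen. Among genes called lower without replicate 1, 60 were not called with both arrays. S100a4, a calcium-binding protein gene, was one of them: it stood at 4.43 and 4.87 in DOX-7g, 5.30 on Dor-7g replicate 1 and 9.16 on replicate 2 (adjusted p = 0.465 with both arrays and 0.0042 without replicate 1). Against replicate 1 S100a4 would be close to DOX-7g and against replicate 2 far above it.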

How the data were processed

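Gene expression was measured on 6 arrays, 2 for each of 3 groups. The deposited values are log2 probeset intensities made by the authors with Partek 6.6 and RMA, per the submitters' processing notes. No label or header consulted names a genome build. RMA corrects background and fits all arrays together, values near the array median carry little signal, and no detection calls were used, so fold changes of dim genes may be compressed. Of 41345 probesets, 23521 named 1 gene, 1814 several and 16010 none in the platform annotation, and 193 of the 1-gene probesets matched no RefSeq gene. Genes reaching the array median on at least 2 arrays were fitted with limma 3.58.1 in R 4.3.3 (1 mean per group over all 6 arrays, no block, 3 residual degrees of freedom) and adjusted by Benjamini-Hochberg over 14020 genes, with a threshold of 0.05. SE is limma's moderated standard error. The replicate numbers were not found to pair the arrays. The method was tested on simulated data.

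Comparison, genes and 48 gene lists were chosen with earlier results of these data known. Named genes were the 15 largest rises and falls (predicted genes and small RNAs left out), up to 6 called members of each list or else its 2 smallest p-values, the 5 calls each way with the widest gap between the Dor-7g arrays, the 10 uncalled genes farthest from both Dor-7g arrays, and the let-7 and Lin28 genes, Hmga2, Myc and Nr0b1. Genes outside this rule were chosen after their values were seen: cell markers, the remaining Zscan4, Tcstv and Usp17l genes, Btg2, Ccng1, Hspa8, Hsp90aa1, Klf5, Zfp42, Dppa3, Etv5 and those so described.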

Additional observations from a re-analysis of the deposited data

Results flagged for a closer look

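Probesets that could not be given 1 gene were outside the comparison by genes. Those that name several genes were called more often than those that name 1, while those with no name were called about as often. In a limma fit over all bright probesets, 66 of 1159 probesets that name several genes were called between DOX-7g and Dor-7g (5.69%), 65 of them higher in DOX-7g and 1 lower. Of 6665 probesets with no gene name here, 69 were called (1.04%), 62 higher and 7 lower. Probesets with 1 gene name gave 130 higher and 11 lower of 14740 (0.957%). No group had enough arrays for a test of a single array that stands apart from its group.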

How the results depend on the processing

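Against 163 calls (146 higher, 17 lower), array weights gave 104 (93 and 11), only the DOX-7g and Dor-7g arrays 86 (80 and 6), an adjusted p under 0.01 gave 69 (66 and 3), and limma's treat test against a change of 1 log2 unit gave 70 (66 and 4). Leaving out 1 array in turn gave 67 to 880 calls, 64 to 710 higher and 3 to 170 lower. With the replicate number as a block there were 116 calls, 105 higher and 11 lower; deviations of same-numbered DOX-7g and Dor-7g arrays correlated at -0.14, and crossing the Dor-7g numbers, chosen after seeing the data, gave 139 calls, 124 higher and 15 lower. A second quantile normalization (152), median centring (156), no filter on dim genes (155), a filter on 4 arrays (122), a trended robust fit (168) and the mean of a gene's probesets (162) kept the number of calls within 1.5 times. List medians were less stable. A second quantile normalization moved 17 of 48 by at least the SD between their 2 Dor-7g readings. The median went from -0.11 to -0.05 over all genes and from 0.35 to 0.23 for translation factors. It went from 0.17 to 0.11 for ribosomal proteins, from -0.04 to 0.09 for p53 targets and from 0.29 to 0.36 for G2/M and mitosis. Genes that reversed were all uncalled: Lamtor3 with the mean of probesets (0.19); Klf5 (0.0070), Myc (0.073) and Nanog (0.065) with median centring; and Nanog with a second quantile normalization (0.015). Others reversed when 1 array was left out, and their differences then ranged over -0.91 to 0.14 for Cdx2, -0.20 to 0.21 for Elane, -0.44 to 0.15 for Gata3, -0.47 to 1.45 for Hspa8, -0.083 to 0.80 for Mirlet7a-1, -0.13 to 0.18 for Mpo, -0.13 to 0.015 for Myc, -0.20 to 0.069 for Nanog, -0.20 to 0.25 for Ngp, -1.14 to 0.064 for Usp17la and -0.64 to 0.33 for Usp17ld. The cause was not tested. Dor-7g replicate 1 minus replicate 2 was -0.14 over the brightest 10% of genes and 0.19 over the dimmest 10%. The median of all genes is therefore a rough reference for lists of bright genes. The number of arrays, 2 a group, limits the precision, and signal near the array median limits what dim genes can show.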

Other observations

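Genes outside the groups described above also stood high in DOX-7g. Saa3, an acute-phase protein gene, stood at 12.99 and 12.58 in DOX-7g, 9.07 and 8.39 in Dor-7g and 11.06 and 10.75 in D4-act-7g (4.05 ± 0.30, adjusted p = 0.0042). Cbr2, a carbonyl reductase gene, stood at 10.89 and 11.14 against 6.86 and 6.26, with day 4 at 8.75 and 8.99 (4.46 ± 0.26, adjusted p = 0.0015). Ddit4l, an inhibitor of mTOR signalling, stood at 9.60 and 9.82 against 6.19 and 5.46, with day 4 at 7.28 and 7.12 (3.88 ± 0.28, adjusted p = 0.0037). In these 3 genes the groups did not overlap, with day 4 between the dormant groups. Trim43a stood at 8.35 and 8.06 against 4.74 and 4.91, with day 4 at 8.61 and 8.54 (3.38 ± 0.19, adjusted p = 0.0013), and Foxr1, a forkhead gene, at 7.07 and 7.68 against 5.53 and 5.18, with day 4 at 9.27 and 9.38 (2.02 ± 0.26, adjusted p = 0.033). In both, Dor-7g was the lowest group. All 5 were chosen after their values were seen.

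Several genes far from both Dor-7g arrays did not pass, and in some of them the DOX-7g arrays were far apart. Lgals2, a galectin gene, stood at 5.57 and 11.27 in DOX-7g against 4.17 and 3.96 (4.35 ± 1.68, adjusted p = 0.418), and S100z at 10.59 and 5.83 against 4.71 and 4.38 (3.66 ± 1.60, adjusted p = 0.457). One DOX-7g array was high in each, a different one for each gene. Snord49b stood at 6.82 and 9.98 against 4.27 and 3.94, with day 4 at 9.37 and 9.51 (4.29 ± 0.95, adjusted p = 0.169). H1f5, a linker histone gene, stood at 8.57 and 7.65 against 3.37 and 3.11 (4.88 ± 1.05, adjusted p = 0.159), while its day 4 arrays stood at 5.98 and 2.59. 1810063I02Rik stood at 6.14 and 3.40 against 10.44 and 9.39 (-5.14 ± 0.88, adjusted p = 0.086), the lowest mean difference of all genes tested.

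The Dor-7g arrays also differed in genes where DOX-7g sided with one of them. Siah1a, a ubiquitin ligase gene, stood at 10.82 and 11.09 in DOX-7g, 5.50 and 11.26 on Dor-7g replicates 1 and 2 and 10.69 and 10.98 in D4-act-7g. Ifitm3, an antiviral membrane protein gene, stood at 8.79 and 9.27 in DOX-7g against 4.43 and 9.89. The opposite order was rarer: Gca, a calcium-binding protein gene, stood at 9.23 and 9.62 in DOX-7g against 10.00 and 4.72. These 3 genes were chosen after their values were seen.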
